A study of Drosophila melanogaster with 16 samples.

Results

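The temporal identity genes chinmo, br, Eip93F, lin-28 and Imp (5 members) were looked up by their FlyBase symbols in the 4 deposited RNA-seq tables of Polycomb group mutant eye discs. Rows were found for 3 of the 5 members, chinmo (FBgn0086758), lin-28 (FBgn0035626) and Eip93F (FBgn0264490), among the 6774 distinct genes that the tables list together. The tissue was the eye disc of Drosophila melanogaster at the L3 larval stage, the epithelium that forms the adult eye. The mutant groups were Ez731 and Su(z)12, whose labels name the FRT2A strain, ph505 on FRT19A, and Psc-Su(z)2 (allele 1.b8) on FRT42D. The controls were wild-type discs of the same 3 FRT strains, where FRT is a recombination site carried by mutants and controls alike. Ez731 and Su(z)12 were compared with the same FRT2A control. A group has 1 deposited sample, labelled as covering 2 replicates, and the tables hold no value for either, so none of the values below has an SD. The labels do not say that the replicates were separate dissections, and the authors' p-values may then reflect technical spread. The comparisons ask which genes change when a subunit of PRC2 (E(z), Su(z)12) or of PRC1 (the ph and Psc-Su(z)2 proteins) is mutated.

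Insect development runs through successive programs set by transcription factors. In Drosophila chinmo, a BTB zinc finger gene, acts in the larval program, br, the Broad gene and also of the BTB zinc finger class, in the switch to the pupa, and Eip93F, which encodes the helix-turn-helix factor E93, in the adult program. The steroid hormone ecdysone drives br and Eip93F, and in the eye disc chinmo is a known target of JAK-STAT signalling. Lin-28 and Imp are RNA-binding proteins of early stages. Lin-28 is best known from Caenorhabditis elegans, where it times larval fates, and Imp maintains chinmo in young neuroblasts and neurons, against the RNA-binding protein Syp.

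The tables give a log2 fold, a mean log2 CPM (CPM, read counts scaled to the size of the library) and edgeR p-values, and list only genes that the authors called at a false discovery rate under 5%. The share of tested genes listed was 9.87% in Ez731, 14.6% in Su(z)12, 26.7% in ph505 and 69.4% in Psc-Su(z)2. Read depth is unknown, and a gene that is not listed has no value here. In the authors' deposited tables E(z) stood at −0.99 in Ez731 (edgeR adjusted p = 8.29e-12) and Psc at −3.94 in Psc-Su(z)2 (edgeR adjusted p = 9.33e-242). From these signs the mutant was taken as the numerator of the folds. In the table labelled ph505 both ph-p and ph-d, closely similar neighbouring genes whose reads may be split between them, were higher (0.78 and 0.90 in the authors' deposited table), so transcript level does not check that label, and below ph505 means the library so labelled. The Su(z)12 gene has no row in the table of its own mutant. The 12 eye disc markers were called in nearly every table. The authors' deposited tables of Ez731 and Su(z)12 list all 12 as lower, that of ph505 lists 11 with 10 lower, and that of Psc-Su(z)2 lists 12 with 11 lower.

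chinmo was higher in 3 of the 4 mutants, and the size of its fold differed widely among them. Its log2 fold was 0.61 in the authors' deposited Su(z)12 table (1.52-fold; edgeR adjusted p = 2.01e-05). It was 2.46 in the authors' deposited table labelled ph505 (5.49-fold; edgeR adjusted p = 5.12e-126). It was 4.57 in the authors' deposited Psc-Su(z)2 table (23.8-fold), where the edgeR adjusted p is written as 0, as for 78 genes of that table. The Ez731 table does not list chinmo. Among the 121 genes that this table lists within 0.5 of the log2 CPM of chinmo in the Su(z)12 table (6.42), the smallest absolute log2 fold was 0.32. That is the smallest change listed for any gene of that expression and sets no bound on a change of chinmo, whose spread is unknown. The difference in fold among mutants was not tested, since each table rests on its own control and gives no error of the fold.

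**Figure D1:**
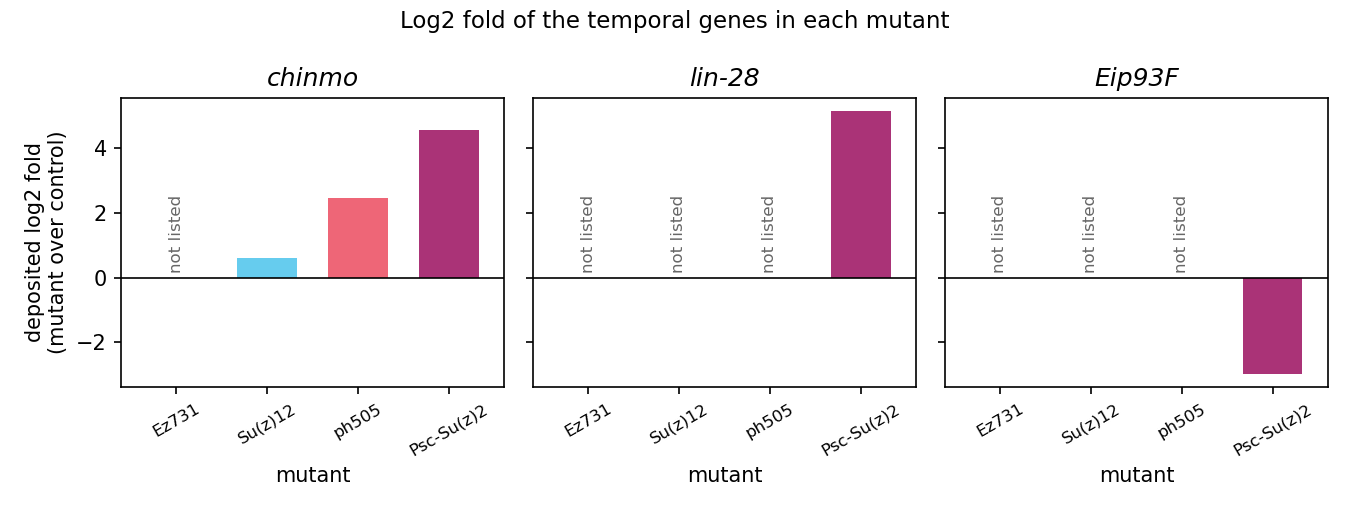
Deposited log2 folds (mutant over control, vertical axis) of chinmo, lin-28 and Eip93F in the 4 mutants, with "not listed" where the table has no row. chinmo stands at 0.61, 2.46 and 4.57, while lin-28 (5.15) and Eip93F (−2.97) have their single bar in Psc-Su(z)2.

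The level of chinmo in each arm can be worked out from the fold and the mean CPM, if the mean weights mutant and control alike. As a check, Ez731 and Su(z)12 share their control, and the FRT2A levels worked out from the 2 tables differed by a median of 0.02 (absolute log2 difference) over 631 genes listed in both. chinmo then had 104.0 CPM in Su(z)12 discs and 68.1 CPM in FRT2A discs. It had 207.0 CPM in ph505 discs and 37.7 CPM in FRT19A discs, and 1120 CPM in Psc-Su(z)2 discs against 47.0 CPM in FRT42D discs. The 3 controls thus spanned 37.7 to 68.1 CPM and the 3 mutants that list chinmo 104.0 to 1120 CPM. Each of these mutants lies above its own control because its deposited fold is positive. Only tables that called chinmo, in whichever direction, give a level. Ez731 has no level, so the gap between the ranges does not cover all mutants. The lowest of these mutants, Su(z)12, had the highest control. The tables were normalized separately, so levels set across them are a description; over genes listed in both tables of a pair, control levels differed by medians of 0.18 to 0.30 (absolute log2 difference) between different FRT strains. Discs are bulk tissue, in which a change in the number of cells that express a gene and a change in RNA per cell cannot be told apart.

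**Figure D2:**
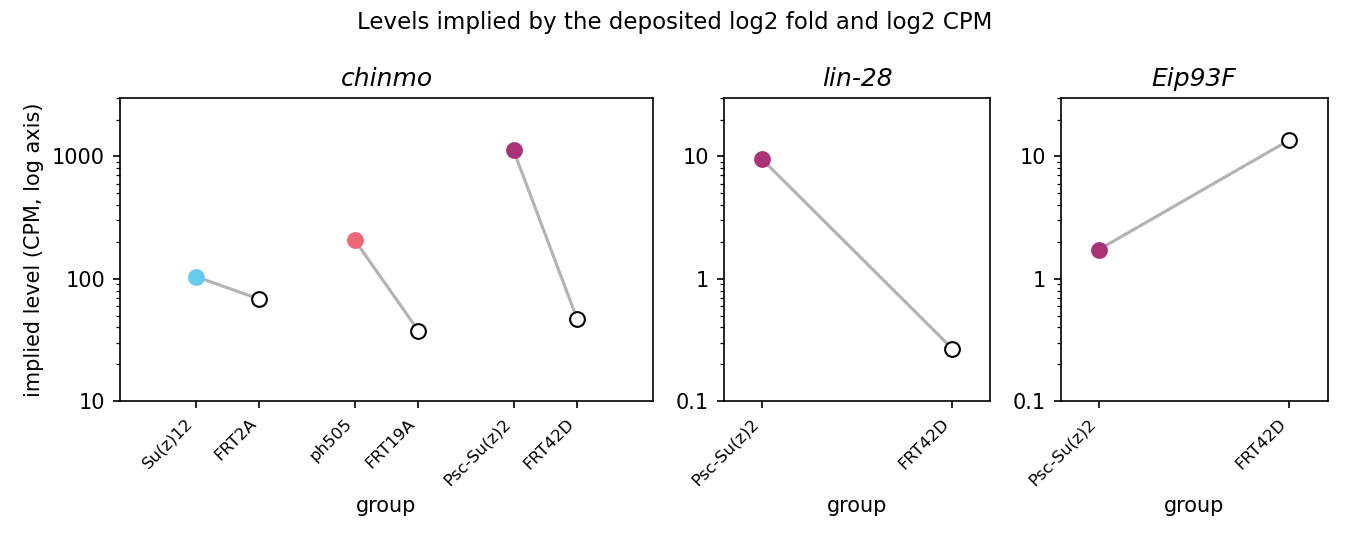
Levels in CPM (log axis) implied by the deposited log2 fold and log2 CPM, with each mutant (filled point) left of its control (open point). chinmo is at 104.0, 207.0 and 1120 CPM in the 3 mutants and at 68.1, 37.7 and 47.0 CPM in their controls.

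lin-28 was higher in Psc-Su(z)2 discs, the one table that lists it. Its log2 fold in the authors' deposited table was 5.15 (35.6-fold; edgeR adjusted p = 3.41e-33) at a mean log2 CPM of 2.29. The implied level was 9.54 CPM in Psc-Su(z)2 discs and 0.268 CPM in FRT42D discs. The control level lies under the lowest mean CPM of any gene listed in that table (0.653), so the fold depends on how the authors' fit treats counts near 0 and is no bound. The Ez731, Su(z)12 and ph505 tables do not list lin-28. At its mean log2 CPM in Psc-Su(z)2, the smallest absolute log2 folds listed in those tables were 0.92, 0.89 and 0.70, but a gene at the level seen in FRT42D discs may not have entered their tests at all.

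Eip93F was lower in Psc-Su(z)2 discs and is not listed for the other 3 mutants. The authors' deposited Psc-Su(z)2 table gives a log2 fold of −2.97 (edgeR adjusted p = 6.13e-18) at a mean log2 CPM of 2.94. This corresponds to 1.73 CPM in Psc-Su(z)2 discs and 13.6 CPM in FRT42D discs, or 7.85-fold less in the mutant. Within 0.5 of that mean log2 CPM, the smallest absolute log2 folds listed were 0.79 in Ez731, 0.78 in Su(z)12 and 0.64 in ph505. These set no bound on a change of Eip93F in those mutants.

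Within their tables these genes took different ranks. chinmo had the 61st largest fold among 1064 higher genes and the 6th smallest p-value in the table labelled ph505. In Psc-Su(z)2 it had the 79th and lin-28 the 46th largest fold among 3154 higher genes. Eip93F had the 560th largest fold among the 3016 lower genes there, and chinmo in Su(z)12 the 335th among 525 higher genes. Ez731 listed 0 of the 5 members, Su(z)12 and ph505 listed 1 each, and Psc-Su(z)2 listed 3. The share of all tested genes listed as higher was 3.46%, 5.89%, 12.1% and 35.5% in that order, and as lower 6.41%, 8.73%, 14.6% and 33.9%, so in Psc-Su(z)2 being listed, in either direction, was common. At a 1% false discovery rate the share of all tested genes called, in the same order of mutants, was 7.09%, 10.8%, 19.8% and 61.5%, and with changes of at least 2-fold it was 5.16%, 7.51%, 9.28% and 27.9%.

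**Figure D3:**
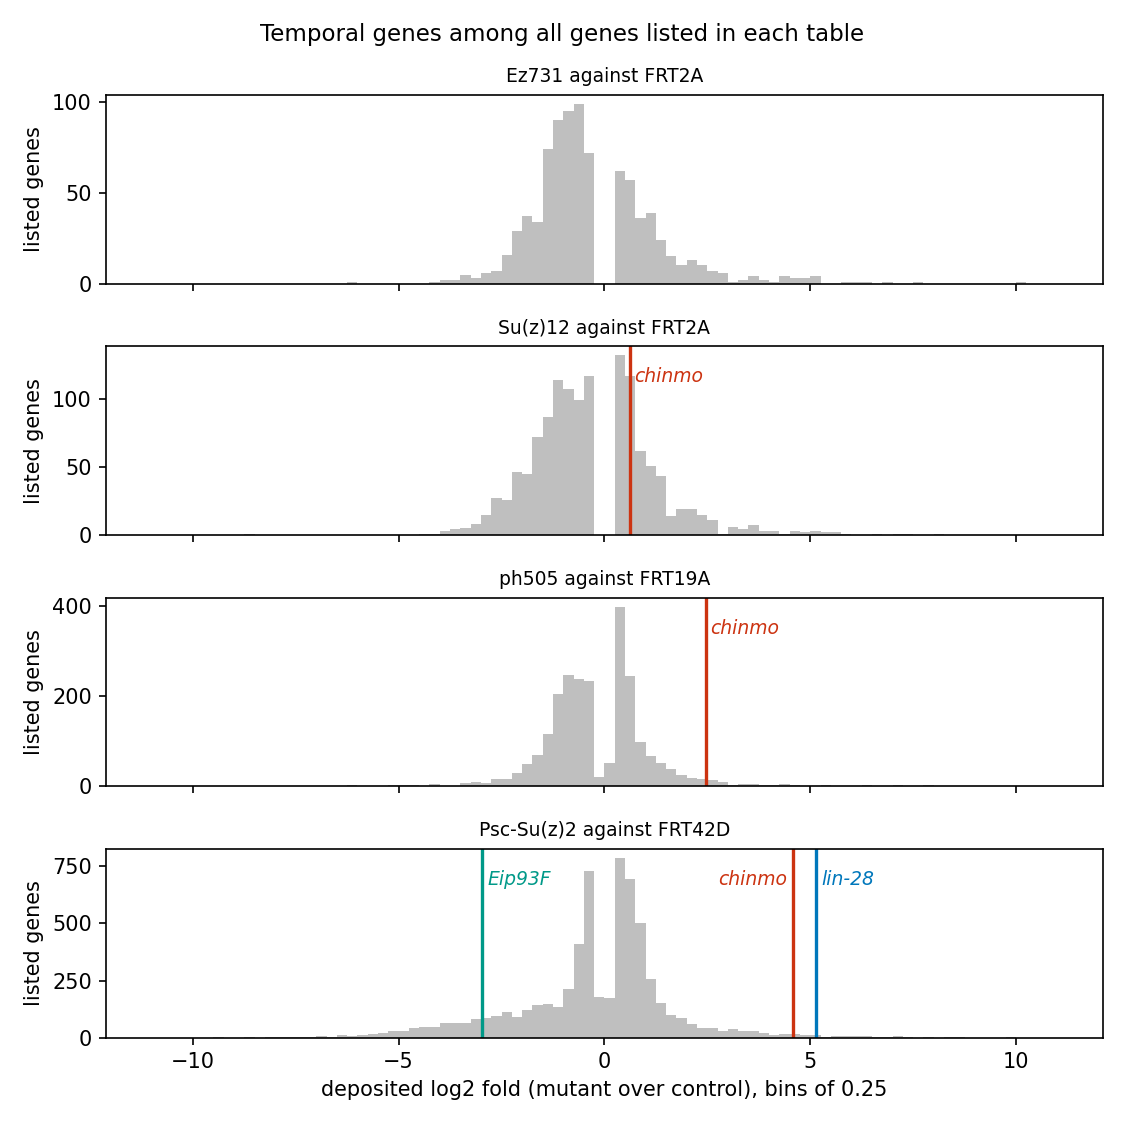
Number of listed genes (vertical axis) by deposited log2 fold (horizontal axis, bins of 0.25) in each table, with vertical lines at the temporal genes. chinmo lies inside the bulk of higher genes in Su(z)12 (0.61), and in the upper tail in ph505 (2.46) and Psc-Su(z)2 (4.57).

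No value is given for br and Imp, because no row could be assigned to them here. Their identifiers in the name table (FBgn0283451 and FBgn0285926) have higher numbers than any identifier in the 4 tables, the highest of which ends in 264721, so neither gene could appear under them. The tables hold 315 distinct identifiers without a symbol in the name table, and no name was given to any of these. Rows of br and Imp under older identifiers may be among them. The absence of br and Imp is therefore no sign that their transcripts were unchanged. The same holds for Su(z)2, one of the genes mutated in Psc-Su(z)2, and for 8 members of the pathway lists below.

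JAK-STAT genes, which act upstream of or beside chinmo, were listed mostly as higher in both PRC1 mutants. In the table labelled ph505, 9 of 16 list members were listed, all 9 higher (median log2 fold 0.88, against −0.35 over all genes listed there). In Psc-Su(z)2, 13 were listed, 10 higher and 3 lower (median 1.22, against 0.21 over all listed genes). All 9 members listed in both tables were higher in both. Equal signs were common there, since 12.2% of all 1977 genes listed in both had opposite signs. The secreted ligands had the widest range, and in the authors' deposited Psc-Su(z)2 table upd1, upd2 and upd3 stood at 3.23, 6.16 and 7.20. The implied level of upd3 was 105.0 CPM in Psc-Su(z)2 and 0.713 CPM in FRT42D discs, and 4.52 CPM in ph505 and 0.311 CPM in FRT19A discs, where the control level lies under the lowest mean CPM listed in that table (0.808), so this fold too depends on how counts near 0 were treated. zfh1, another known STAT target, stood beside chinmo, with 372.0 CPM in Psc-Su(z)2 discs and 30.0 CPM in FRT42D discs. Its implied level was 124.0 CPM in ph505 discs and 29.2 CPM in FRT19A discs. The receptor gene dome and Stat92E, which encodes the transcription factor, changed less: the authors' deposited tables give 0.28 and 0.46 in ph505, and 1.01 and 0.43 in Psc-Su(z)2. The lower members in Psc-Su(z)2 were hop, the kinase (−0.22 in the authors' deposited table), Su(var)2-10 (−0.19) and Socs16D (−0.54).

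The PRC2 tables list fewer genes in all. JAK-STAT members were listed at 4 of 16 in Ez731, against 9.87% of all tested genes, and at 12.5% in Su(z)12, against 14.6%. In ph505 the share was 56.2%, against 26.7%, and in Psc-Su(z)2 81.2%, against 69.4%. The authors' deposited Su(z)12 table, where chinmo was higher, lists upd3 at 1.93 and the target gene apt at 0.59, 2 of 16. The Ez731 table, where chinmo is not listed, holds 4 of 16: upd2 (1.62) and upd1 (0.94) higher, and the negative receptor gene et (−1.74) and the repressor gene ken (−0.49) lower in the authors' deposited values. Stat92E, dome and zfh1 are listed in neither PRC2 table.

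**Figure D4:**
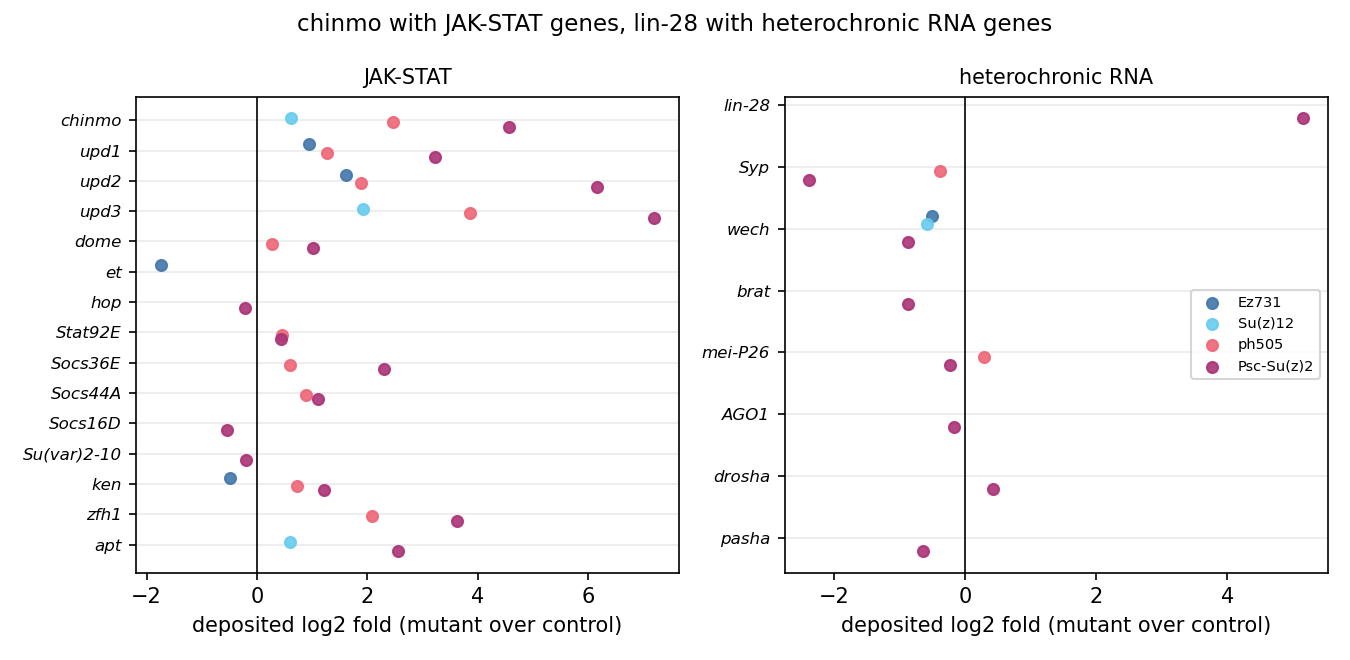
Deposited log2 folds (horizontal axis) of chinmo with the listed JAK-STAT genes (left) and of lin-28 with the listed heterochronic RNA genes (right), 1 point for each table that lists the gene. chinmo, upd1, upd2, upd3 and zfh1 lie right of 0 in every table that lists them, and Syp lies left of 0 at −0.39 and −2.38.

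Among genes of the heterochronic RNA pathway, Syp, whose product opposes Imp in neuroblasts, was lower in both PRC1 mutants. Its log2 fold was −0.39 in the authors' deposited table labelled ph505 (edgeR adjusted p = 0.000128) and −2.38 in Psc-Su(z)2 (edgeR adjusted p = 2.35e-168). Syp had an implied level of 540.0 CPM in ph505 discs against 709.0 CPM in FRT19A discs, and 114.0 CPM in Psc-Su(z)2 discs against 591.0 CPM in FRT42D discs. Of the 13 list members the PRC2 tables listed 1 each, ph505 listed 2 and Psc-Su(z)2 listed 7. These are 7.69%, 7.69%, 15.4% and 53.8% of the list, against 9.87%, 14.6%, 26.7% and 69.4% of all tested genes, both given in the order Ez731, Su(z)12, ph505, Psc-Su(z)2. The list counts 2 members without an identifier in the name table and 1 with an identifier too new for the tables. None of these could be listed, so the list shares are understated and are not read as below those of all genes. mei-P26, a TRIM-NHL gene of the germ line, stood at 0.28 in ph505 and −0.24 in Psc-Su(z)2 in the authors' deposited tables. The TRIM-NHL gene wech was lower in 3 tables, at −0.51, −0.59 and −0.87 in the authors' deposited tables of Ez731, Su(z)12 and Psc-Su(z)2. In Psc-Su(z)2 6 of 7 were lower (median −0.64, against 0.21 over all listed genes, 48.9% of which were lower), with brat, a growth regulator of neuroblasts, at −0.87, pasha of the microRNA processor at −0.64, and drosha, its nuclease, the exception at 0.42 in the authors' deposited table. The microRNAs mir-100 and mir-125 are listed in no table.

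Genes of the ecdysone cascade, to which Eip93F and br belong, were listed mostly as higher in the PRC2 mutants and mostly as lower in the PRC1 mutants. Of 25 list members, 10 were listed in Ez731, 9 of them higher (median log2 fold 1.09, against −0.66 over all listed genes), and 8 in Su(z)12, 7 of them higher (median 0.48, against −0.53). In the table labelled ph505 18 were listed, 13 of them lower (median −0.61, against −0.35), and in Psc-Su(z)2 22 were listed, 18 of them lower (median −1.35, against 0.21). In the order Ez731, Su(z)12, ph505, Psc-Su(z)2 the listed share of the list was 40.0%, 32.0%, 72.0% and 88.0%. Of all tested genes it was 9.87%, 14.6%, 26.7% and 69.4%. EcI, which has no identifier in the name table, could not be listed but is counted in the list. Of the 10 members listed in both Ez731 and Psc-Su(z)2, 8 had opposite signs, against 32.8% of the 692 genes listed in both. Of the 9 listed in both Ez731 and ph505, 8 did, against 134 of 478 genes. Hr4, a nuclear receptor gene of the cascade, stood at 1.54 and 0.53 in the authors' deposited tables of Ez731 and Su(z)12, and at −1.13 and −5.53 in those of ph505 and Psc-Su(z)2. Blimp-1, an ecdysone-inducible repressor gene, stood at 1.43, 0.57, −1.49 and −3.57 in the same deposited tables. ImpE2, an inducible disc gene, was at 1.09 and 0.43 in the authors' deposited tables of Ez731 and Su(z)12, at −2.34 in ph505 and at −9.27 in Psc-Su(z)2. Hr3, another nuclear receptor gene, was at 1.06, −1.70 and −5.69 in the authors' deposited tables of Ez731, ph505 and Psc-Su(z)2.

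Members of that list did not all move together. Cyp18a1, whose enzyme inactivates ecdysone, had the highest fold of the list in both PRC2 tables, at 1.82 and 1.34 in the authors' deposited values of Ez731 and Su(z)12, and stood at −2.40 in Psc-Su(z)2. ImpL2, an insulin-binding protein gene, was the one member lower in Su(z)12 (−0.63 in the authors' deposited table) and stood at −1.17 in ph505. The receptor genes had small folds of mixed sign, with EcR at −0.45, 0.47 and −0.50 in the authors' deposited tables of Ez731, ph505 and Psc-Su(z)2, and usp at −0.35 in Psc-Su(z)2. The early genes Eip74EF, Eip75B and Eip78C were lower in the authors' deposited Psc-Su(z)2 table, at −1.12, −1.58 and −3.11, beside Eip93F at −2.97. ftz-f1, the competence factor of the prepupa, was higher in both PRC1 tables (1.94 in ph505 and 1.64 in Psc-Su(z)2 in the authors' deposited values). Ldh, a glycolytic enzyme gene first known as the ecdysone-inducible ImpL3, was higher in 3 tables, at 1.11, 2.53 and 4.04 in the authors' deposited values of Ez731, ph505 and Psc-Su(z)2.

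**Figure D5:**
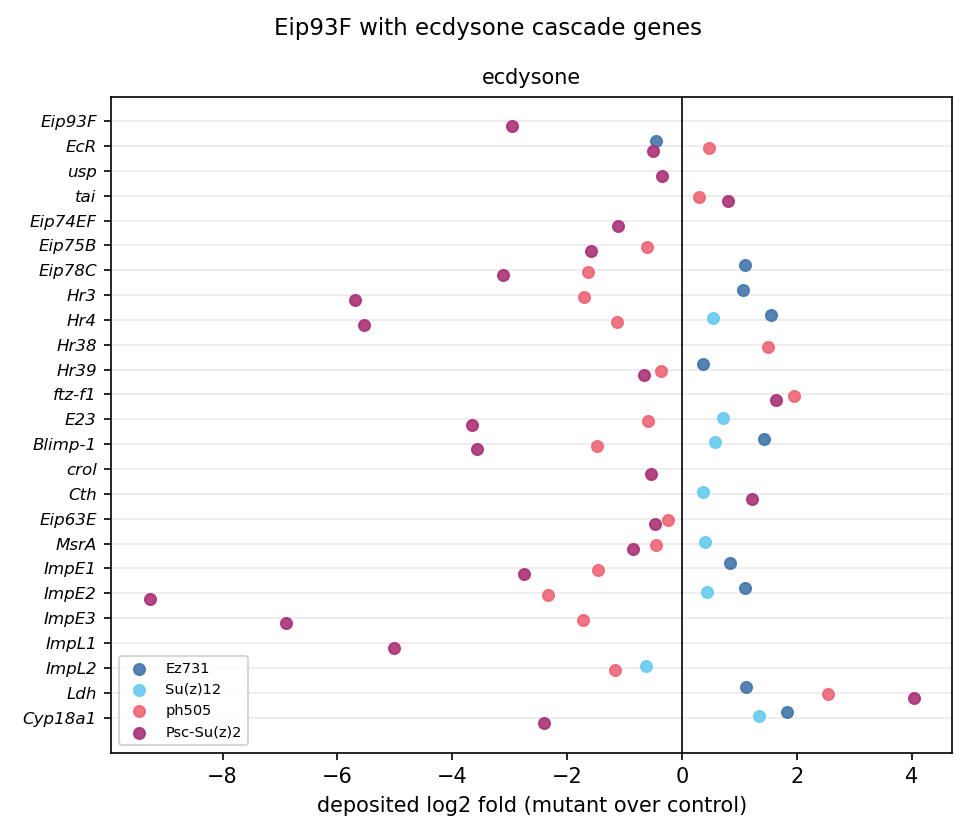
Deposited log2 folds (horizontal axis) of Eip93F and the listed ecdysone cascade genes, 1 point for each table that lists the gene. Hr4, Blimp-1 and ImpE2 lie right of 0 in Ez731 and Su(z)12 and left of 0 in ph505 and Psc-Su(z)2.

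The controls themselves differed in these genes. The implied levels of Hr4 were 177.0 CPM in Ez731, 87.0 CPM in Su(z)12, 124.0 CPM in ph505 and 3.19 CPM in Psc-Su(z)2 discs, against 60.6 CPM in FRT2A (mean of the 2 tables), 272.0 CPM in FRT19A and 147.0 CPM in FRT42D discs. The ph505 level of Hr4 therefore lay above that of Su(z)12, although its fold was negative and that of Su(z)12 positive. ImpE2 was at 2670 CPM in Ez731, 1670 CPM in Su(z)12, 792.0 CPM in ph505 and 3.84 CPM in Psc-Su(z)2 discs, against 1250 CPM in FRT2A, 4020 CPM in FRT19A and 2380 CPM in FRT42D discs. Of the 11 list members with a level for all 3 controls, 8 were highest in FRT19A and lowest in FRT2A, an order found in 29.1% of all 752 genes with such levels, and 7 were at least 2-fold higher in FRT19A than in FRT2A, against 5.59% of all. chinmo ran the other way, lowest in FRT19A. This comparison was chosen after the values were seen, and differences between FRT strains, stage at dissection or batch cannot be told apart with 1 sample per group.

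Juvenile hormone is the other hormonal input to larval timing. Of its 8 list members, 1 of which (Kr-h1) has an identifier too new for the tables, Ez731 and Su(z)12 listed 12.5% each, near the 9.87% and 14.6% of all tested genes. The ph505 table listed 0 and Psc-Su(z)2 listed 3 (37.5%), against 26.7% and 69.4% of all. The synthesis gene jhamt was lower at −1.05 in the authors' deposited Ez731 table and −5.89 in Psc-Su(z)2, and the degradation gene Jheh1 was higher at 0.84 in Su(z)12 and 1.82 in Psc-Su(z)2. The implied level of jhamt in Psc-Su(z)2 discs (0.285 CPM) lies under the lowest mean CPM listed in that table (0.653). That fold therefore depends on how counts near 0 were treated.

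Other genes of the BTB zinc finger class, to which chinmo belongs, form a list of 15 members. In Ez731 4 were listed, 2 of them higher, and in Su(z)12 4, with 3 higher. The ph505 table listed 7, with 6 higher, and Psc-Su(z)2 listed 8, with 3 higher. In the same order of mutants 26.7%, 26.7%, 46.7% and 53.3% of the list were listed, against 9.87%, 14.6%, 26.7% and 69.4% of all tested genes. The list counts 1 member without an identifier and 3 with identifiers too new, none of which could be listed. Of all listed genes 35.0% were higher in Ez731, 40.3% in Su(z)12, 45.3% in ph505 and 51.1% in Psc-Su(z)2. The list's median log2 fold was 1.02 in ph505, against −0.35 over all listed genes, and −0.25 in Psc-Su(z)2, against 0.21. bab2, a limb patterning gene, led in Ez731 at 1.18 and ab, a dendrite gene, in Su(z)12 at 1.14 in the authors' deposited tables, and ken was lowest in Ez731. rib, a tracheal and salivary gland gene, stood at 2.6 and 6.37 in the authors' deposited tables of ph505 and Psc-Su(z)2, and fru, the courtship gene, at 0.52, 1.99 and 1.56 in those of Su(z)12, ph505 and Psc-Su(z)2. psq was lower in the authors' deposited tables of Ez731 (−0.36), Su(z)12 (−0.39) and Psc-Su(z)2 (−0.54), and ttk in those of ph505 (−0.55) and Psc-Su(z)2 (−0.28).

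The transcription factors of the neuroblast temporal series, many of which also work in the eye disc, form a list of 19 members. In Ez731 7 were listed, 5 of them lower, and in Su(z)12 10, with 8 lower. The ph505 table listed 12, with 9 lower, and Psc-Su(z)2 listed 13, with 10 lower. In the same order of mutants 36.8%, 52.6%, 63.2% and 68.4% of the list were listed, against 9.87%, 14.6%, 26.7% and 69.4% of all tested genes. The list counts 2 members with identifiers too new for the tables. Of all listed genes 573 of 882 were lower in Ez731, and 59.7% in Su(z)12, 54.7% in ph505 and 48.9% in Psc-Su(z)2. The lower members of every table include dan, danr and ey, which were already counted among the eye disc markers above. They stood at −4.61, −5.32 and −2.21 in the authors' deposited Psc-Su(z)2 table. svp, a switching factor of the series, was at −0.68 and −0.98 in the authors' deposited tables of Ez731 and Su(z)12, and at −0.97 and −5.41 in those of ph505 and Psc-Su(z)2. tll, a late factor, was lowest in the authors' deposited tables of Ez731 (−1.99) and Su(z)12 (−2.6), and slp1 in that of ph505 (−1.35). Among the higher members, D stood at 1.28 in both Su(z)12 and Psc-Su(z)2 and cas at 1.76 in ph505 in the authors' deposited tables. nub was at 1.28, 1.37, 1.21 and 2.65 in the same deposited tables, and Kr at 2.30, 2.26 and 1.40 in those of Ez731, ph505 and Psc-Su(z)2. hb and pdm2 are listed in none.

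Markers of neurons and neuroblasts, cells that can themselves express chinmo, Imp and Syp, were lower where listed except for insc. Of 6 neuron markers Ez731 listed 2, Su(z)12 and ph505 5 each and Psc-Su(z)2 6, all lower. Their summed implied level over listed members was 49.1 CPM in Psc-Su(z)2 and 716.0 CPM in FRT42D discs, and 408.0 CPM in ph505 and 721.0 CPM in FRT19A discs. It was 170.0 CPM in Ez731 and 295.0 CPM in FRT2A discs for the members listed there, and 221.0 CPM in Su(z)12 and 466.0 CPM in FRT2A discs. Of 6 neuroblast markers, all were listed in Psc-Su(z)2, 5 lower and insc higher (3.75 in the authors' deposited table), with summed levels of 187.0 CPM in Psc-Su(z)2 and 166.0 CPM in FRT42D discs. insc makes up 163.0 CPM of the Psc-Su(z)2 sum, and the other 5 markers summed to 24.7 CPM in Psc-Su(z)2 and 154.0 CPM in FRT42D discs. Neuroblast markers were listed for 3 members in Ez731 (all lower), 5 in Su(z)12 (4 lower) and 4 in ph505 (3 lower). Their summed levels there were 59.2 CPM in Ez731 and 107.0 CPM in FRT2A discs, 70.9 CPM in Su(z)12 and 122.0 CPM in FRT2A discs, and 78.6 CPM in ph505 and 77.6 CPM in FRT19A discs. Without insc, which was higher in ph505 and Su(z)12 too, they were 47.7 CPM in Su(z)12 and 111.0 CPM in FRT2A discs, and 30.2 CPM in ph505 and 57.6 CPM in FRT19A discs. Hemocyte markers, of blood cells, were lower for all 6, 7 and 7 listed of 8 in Ez731, Su(z)12 and ph505, and 6 of 7 listed were higher in Psc-Su(z)2, with summed levels of 661.0 CPM in Psc-Su(z)2 and 378.0 CPM in FRT42D discs. Fat body markers were lower for all 6 in Ez731, Su(z)12 and ph505, with sums of 389.0 CPM in Ez731 and 2890 CPM in FRT2A discs, 384.0 CPM in Su(z)12 and 2850 CPM in FRT2A discs, and 61.7 CPM in ph505 and 582.0 CPM in FRT19A discs. In Psc-Su(z)2 2 of the 6 were listed, 1 higher and 1 lower, with sums of 56.9 CPM in Psc-Su(z)2 and 69.0 CPM in FRT42D discs. The part of these cells in the values of chinmo, lin-28, Eip93F and Syp was not tested. The tables print no marker at 0, since they list called genes alone.

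The genes whose pattern was most like that of chinmo were found among the 307 named genes listed in the same 3 tables and no other, by Euclidean distance of log2 folds over these tables. Ude, which encodes a uracil-DNA degrading factor, was nearest (distance 0.59), with 1.16, 2.52 and 4.39 in the authors' deposited tables of Su(z)12, ph505 and Psc-Su(z)2. CG10126 followed (distance 0.72) with 1.18, 2.62 and 4.17 in the authors' deposited tables, then CG13117 (0.77) with 1.19, 2.08 and 4.90. Of all 329 identifiers with this listing, chinmo included, 92 were higher in all 3 tables, and 69 of these had folds in the same order of mutants as chinmo.

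Neighbouring genes were read from the gene order of another assembly, Release 6, with 3 protein-coding genes on each side. None of the 6 neighbours of chinmo was listed in Su(z)12 or ph505, where 14.6% and 26.7% of all tested genes were. In Psc-Su(z)2 3 were listed, at 0.79 (RFeSP), 0.25 (CG17660) and −0.83 (CG14352) in the authors' deposited table. Of the 6 neighbours of Eip93F, 3 were listed in Psc-Su(z)2, at 2.19 (Qsox2), 0.92 (Idh3b) and 0.69 (Mitofilin) in the authors' deposited table. Qsox2 was also listed in Su(z)12 (1.11) and ph505 (1.18), and CG43844 in ph505 (−1.55), in the authors' deposited values. Of the 6 neighbours of lin-28, 3 were listed in Psc-Su(z)2, where 69.4% of all tested genes were: Blimp-1 at −3.57, Eaf6 at −0.82 and mthl2 at 1.79 in the authors' deposited table. Elsewhere mthl2 was listed in ph505 (−1.52), and Blimp-1 in Ez731, Su(z)12 and ph505 (1.43, 0.57 and −1.49), in the authors' deposited values.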

How the data were processed

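RNA-seq of eye discs was processed, per the submitters' processing notes, with Bowtie2 2.1.0.0, edgeR 2.6.2 and TopHat2 2.0.8b on the BDGP5 build. The log2 folds and log2 CPM values are the authors', per the file headers. The p-values and false discovery rates are likewise the authors', as deposited, and the tables list only genes under 5%. The sources used here do not give how replicates entered the test. No test was run here: with no counts and 1 sample per group, the authors' adjusted p is given. Members, lists and comparisons were chosen with earlier results of these data known.

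Identifiers were paired with symbols through a gene name table, and older symbols through RefSeq synonyms. Identifiers left without a symbol numbered 43 in Ez731, 72 in Su(z)12, 136 in ph505 and 289 in Psc-Su(z)2. The number of genes tested (8934, 8907, 8804 and 8886) was worked out from each gene's p, its rank and its adjusted p (adjusted p × rank / p), a step checked on simulated data. Levels per arm were computed as 2 × CPM / (1 + fold) for the control and fold times that for the mutant. Named were the 5 members, any listed gene of the 6 pathway lists, with at least the highest and lowest of each list in each table, and the 3 genes nearest to each member listed in 2 or more tables. The ChIP-seq region lists, per the labels made with SICER, were not read at these genes: on 3R they end at 27897451, while Release 6, the annotation at hand, has genes up to 32068441. For lack of sequence tables no promoter motif was searched. Python 3.11.15, numpy 2.4.6, pandas 2.3.3 and matplotlib 3.10.9 were used.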

Additional observations from a re-analysis of the deposited data

How the results depend on the processing

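At a 1% false discovery rate every listed member of the temporal genes was kept in its table. With changes of at least 2-fold, 0 members were left in Su(z)12, where chinmo was at 0.61, and the counts of 1 in ph505 and 3 in Psc-Su(z)2 stayed. Among genes no lower than the table's median log2 CPM, 1 member, chinmo, was left in Psc-Su(z)2, since lin-28 and Eip93F are expressed below it. If the ph505 table had its numerator and denominator exchanged, chinmo would stand at a log2 fold of −2.46, with its rank of 61 among the lower genes, and the higher and lower counts of every list in ph505 would change places. Of 24 counts of listed genes in the 6 other lists, 20 stayed within 1.5 times at a 1% false discovery rate, 8 with changes of at least 2-fold and 15 with the expression filter. Binding at the genes and its alternatives were not run, because no annotation of the build of the region lists was used. No paired analysis was possible because each group is 1 sample without values per replicate. Leaving out a replicate was not possible for the same reason. Unknown depth limits what can be said of lin-28 and Eip93F, both of low CPM. Other named genes too had an implied level, in mutant or control, under the lowest mean CPM of the table. These include upd2 in Ez731, upd3 and tll in Su(z)12, and bam and gcm in both PRC2 tables. They also include rib, Kr and cas in ph505 and Kr in Psc-Su(z)2. The folds of these genes depend on how counts near 0 were treated.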

Other observations

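Markers of further cell types were also looked up. Of 4 tracheal markers 1 was listed in Ez731, 2 in Su(z)12, 1 in ph505 and 3 in Psc-Su(z)2. The list counts 1 marker with an identifier too new for the tables, which could not be listed. trh, a master gene of the trachea, stood at 1.33 in Su(z)12, 3.29 in ph505 and 2.95 in Psc-Su(z)2 in the authors' deposited tables. Gasp, a chitin-binding protein gene of the airway lining, was lower in the authors' deposited tables of Ez731 (−0.78) and Su(z)12 (−0.81) and stood at 0.25 in that of Psc-Su(z)2, where vvl, a tracheal transcription factor gene, was at −1.78. Of 5 germ line markers 2 each were listed in Ez731, Su(z)12 and Psc-Su(z)2, all higher, and 0 in ph505. The list counts 1 marker with an identifier too new and 1 without an identifier, which could not be listed. bam, a germ cell differentiation gene, stood at 6.24 and 4.23 in the authors' deposited tables of Ez731 and Su(z)12. piwi, which silences transposons, stood at 1.45, 1.72 and 3.01 in those of Ez731, Su(z)12 and Psc-Su(z)2, and aub at 1.77 in that of Psc-Su(z)2. Of 5 ring gland markers, genes of ecdysone synthesis, 1 was listed in Ez731, 0 in Su(z)12, 1 in ph505 and 2 in Psc-Su(z)2. Here too 1 marker has an identifier too new and 1 has none. sad was lower in the authors' deposited tables of Ez731 (−0.90), ph505 (−0.85) and Psc-Su(z)2 (−6.12), and dib in that of Psc-Su(z)2 (−3.65). Of 7 muscle markers the listed ones were lower in Ez731 (5), Su(z)12 (5) and ph505 (6), and 4 of 5 were lower in Psc-Su(z)2. The listed share was 71.4%, 71.4%, 85.7% and 71.4% in that order, against 9.87%, 14.6%, 26.7% and 69.4% of all tested genes. The muscle list counts 1 marker with an identifier too new for the tables, so its shares are understated. Of 6 glial markers, gcm, the glial fate gene, stood at −2.66, −2.87 and 2.53 in the authors' deposited tables of Ez731, Su(z)12 and Psc-Su(z)2. moody, of the blood-brain barrier, was higher in the same deposited tables (0.45, 0.54 and 1.70), while repo and wrapper were lower in that of Psc-Su(z)2 (−2.92 and −1.21).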
